A study of Mus musculus with 6 samples.

Results

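The amino acid transporter families examined here are the genes whose platform symbol begins with Slc1a, Slc3a, Slc6a, Slc7a, Slc36a, Slc38a or Slc43a followed by a number. Their symbols alone chose them, and 64 of the 19937 genes represented on the arrays met the rule: 7 of Slc1, 2 of Slc3, 21 of Slc6, 16 of Slc7, 4 of Slc36, 11 of Slc38 and 3 of Slc43. Whole fetal livers of Klf1-/- embryos, homozygous for a disrupted gene of the erythroid transcription factor Klf1, were compared with livers of wildtype embryos. All were FVB/NJ mice at embryonic day 13.5, collected from time-mated Klf1 +/- stock, with 3 livers per genotype and 1 Affymetrix gene array per liver. How Klf1 was disrupted is not described, nor whether embryos shared a litter; p-values therefore speak only of the variation among the 6 embryos.

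The symbol rule is wider than the label. Some Slc6 members carry monoamines, GABA, taurine or creatine, and 2 members, Slc6a19os and Slc7a6os, are genes on the opposite strand of a carrier and are not carriers by name. Solute carriers of these families sit in the plasma membrane or in lysosomes and move amino acids with sodium, with protons or in exchange for other amino acids. Slc7 light subunits reach the membrane bound to an Slc3 heavy subunit, and cationic Slc7 carriers work alone. The fetal liver at this stage is mainly an organ of red cell formation, and erythroblasts need imported amino acids for globin and, in the case of glycine, for heme.

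Median intensity per array lay between 104.5 and 109.8. Levels below are log2 of the deposited intensity, changes are knockout minus wildtype on that scale, and ± beside a change is its standard error in limma's linear model. Genes whose p stayed under 0.05 after Benjamini-Hochberg adjustment over all 19937 genes count as called. Klf1 itself read 9.05, 9.38 and 9.12 in knockout replicates 1, 2 and 3, against 10.59, 10.58 and 10.76 in wildtype replicates 1, 2 and 3, a change of -1.46 ± 0.10 (limma adjusted p = 3.7e-06). Erythroid markers fell in 7 of 8 cases, with a summed intensity of 27617 to 29927 in knockout livers and 50219 to 55495 in wildtype livers. The 12 hepatoblast markers summed to 52620 to 56032 in knockout livers and 54368 to 65862 in wildtype livers, with 2 lower and 0 higher, and no marker of either list was below the lower quartile of all genes. In a whole liver, fewer cells of a type and less RNA per cell cannot be told apart, and this holds for every change below. Wildtype replicate 3 had the highest level of the 3 wildtype livers in 41 of the 64 members, or 64.1%, against 31.2% of all genes. It also had the highest summed erythroid, hepatoblast, macrophage, endothelial and mesenchymal markers of its group; the part of these in the changes below was not tested, and values without that liver are given with the counts.

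In all, 16 members were called, 10 lower and 6 higher in the knockout. Lower calls made up 15.6% of the members, beside 8.26% of all genes, and higher calls made up 9.38% of the members, beside 10.8% of all genes. Among changes of at least 1.5-fold, 6 members were lower (9.38%, beside 2.46% of all genes) and 4 were higher (6.25%, beside 2.75%). These changes were led by 3 carriers that fell more than any other member: Slc43a1, a leucine and other neutral amino acid carrier, Slc6a20a, a proline carrier, and Slc1a5, a glutamine carrier. The largest rises were in Slc7a3, a cationic amino acid carrier, and Slc6a3, the dopamine carrier. Without wildtype replicate 3 there were 9 lower and 6 higher calls, beside 1395 and 1770 over all genes. Centring each array on its 75th percentile gave 12 lower and 4 higher. That centring also moved the calls over all genes, from 1646 lower and 2163 higher to 2462 and 1573.

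The median change of the 64 members was -0.10, beside -0.02 for all genes. Changes were negative in 48 of the 64 members, beside 10916 of the 19937 genes. With quantile normalization 41 members were negative. Without wildtype replicate 3 there were 37, and the member median was -0.06, beside -0.03 for all genes. Of the 48 members not called, 38 had negative changes, and changes of the 48 ran from -0.32 to 0.24. The groups did not overlap in 26 members, or 40.6%, beside 37.5% of all genes; knockout livers were higher in 10 of them (15.6%, beside 19.0%) and lower in 16 (25%, beside 18.5%). Many probe sets of these families were dim: 11 members averaged below the lower quartile of all genes and 31 below the median, and all 64 were kept in the fit. At or above the median 12 of 33 members were called (36.4%, beside 29.1% of all genes there), and below it 4 of 31 (12.9%, beside 9.09%).

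**Figure D1:**
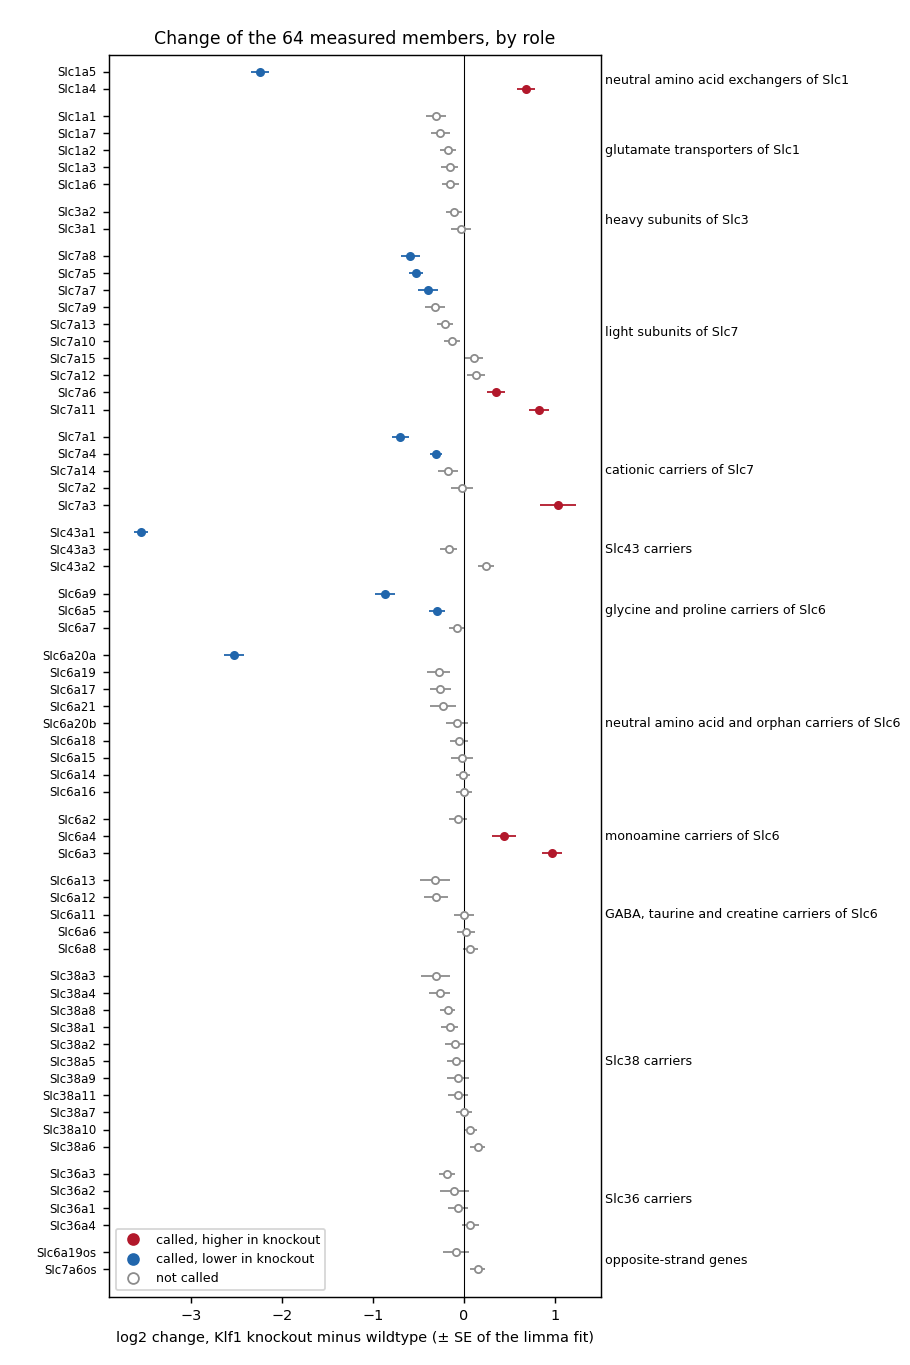
Log2 change of each of the 64 members, knockout minus wildtype, with its standard error from limma, grouped by role; filled points are called and open points are not. Slc43a1, Slc6a20a and Slc1a5 stand apart on the left at -3.55, -2.53 and -2.24, and the open points lie between -0.32 and 0.24.

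Slc43a1 had the largest change of all members. It read 8.79, 8.71 and 8.75 in knockout replicates 1, 2 and 3, against 12.24, 12.26 and 12.42 in wildtype replicates 1, 2 and 3. Every knockout liver lay more than 3 log2 units below every wildtype liver, and replicates within a genotype were close together. The change was -3.55 ± 0.08, 11.7-fold lower in the knockout (limma adjusted p = 1.8e-09). The other Slc43 members were not called. Slc43a2, another neutral amino acid carrier, averaged 7.50 ± 0.04 in knockout livers and 7.26 ± 0.16 in wildtype livers (SD, n = 3 each) with a change of 0.24 ± 0.09 (adjusted p = 0.0941). Slc43a3, a carrier of purine bases, was at -0.17 ± 0.09 (adjusted p = 0.199), with a 95% interval of -0.36 to 0.02. The change of Slc43a1 differed from that of Slc43a3 by -3.39 ± 0.07 and the groups did not overlap; the exact permutation test of this difference gave p = 0.10, the smallest that 3 against 3 livers allow.

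Slc6a20a read 6.12, 5.90 and 5.96 in knockout replicates 1, 2 and 3, against 8.45, 8.37 and 8.75 in wildtype replicates 1, 2 and 3. The groups were far apart, and the change was -2.53 ± 0.11, 5.77-fold lower in the knockout (limma adjusted p = 1.0e-07). Its neighbour and close relative Slc6a20b averaged 5.63 ± 0.25 in knockout livers and 5.72 ± 0.11 in wildtype livers (SD, n = 3 each) and was not called (-0.08 ± 0.12, adjusted p = 0.662). Probe sets of such similar genes can share signal, so the separation of the copies is uncertain, although the measured changes of the copies differed by -2.44 ± 0.12 (exact permutation p = 0.10, the smallest possible). The other 8 neutral amino acid and orphan carriers of Slc6, Slc6a20b among them, were not called, and all 9 changes of the group were negative, although those of Slc6a14, Slc6a15, Slc6a16, Slc6a18 and Slc6a20b turned positive under some alternative.

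The Slc1 neutral exchangers moved in opposite directions. Slc1a5 read 9.08, 9.18 and 9.22 in knockout replicates 1, 2 and 3, against 11.24, 11.38 and 11.59 in wildtype replicates 1, 2 and 3. All knockout livers were at least 2 log2 units below all wildtype livers, a change of -2.24 ± 0.10 or 4.73-fold lower (limma adjusted p = 1.3e-07). Slc1a4, which exchanges alanine, serine and cysteine, read 9.48, 9.38 and 9.36 in knockout replicates 1, 2 and 3, against 8.54, 8.80 and 8.84 in wildtype replicates 1, 2 and 3. Its groups did not overlap either, and it rose by 0.68 ± 0.10, 1.6-fold (adjusted p = 0.000563). The 5 glutamate transporters of Slc1 were all below the median level of genes. None of them was called by limma, 2 had an unadjusted p under 0.05, and their changes ran from -0.31 in Slc1a1 to -0.15 in Slc1a6.

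**Figure D2:**
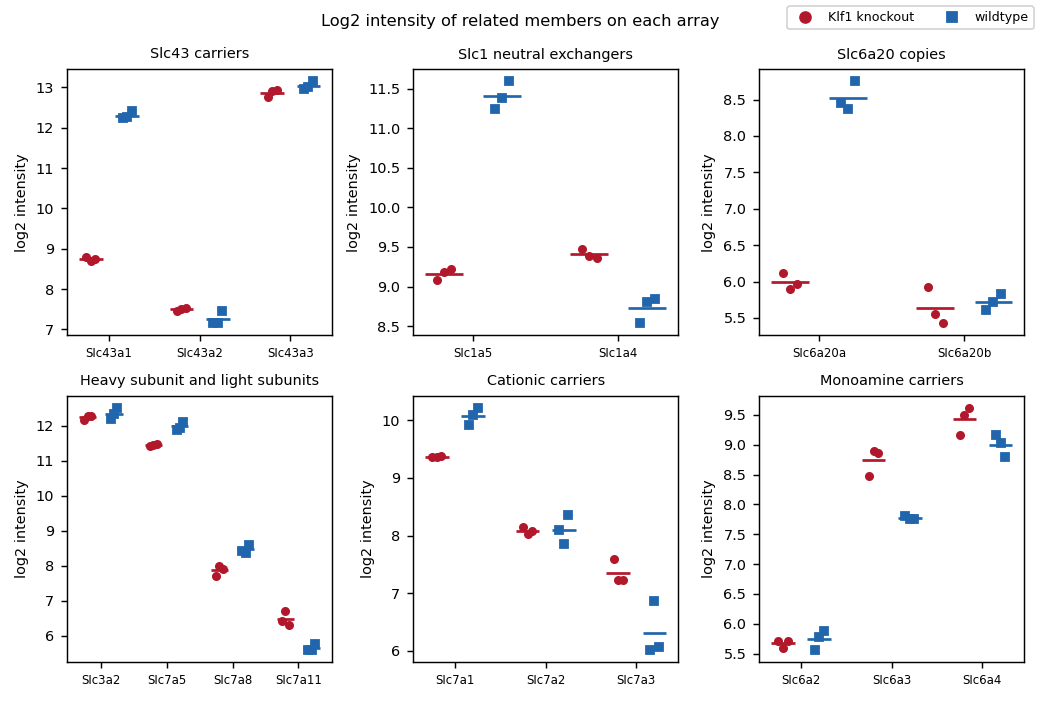
Log2 intensity of related members on each array, knockout circles to the left of wildtype squares, with the group mean as a line; levels of different genes come from different probe sets and are not compared. Slc43a1, Slc6a20a and Slc1a5 are lower in all knockout livers, while their relatives Slc43a2, Slc43a3 and Slc6a20b were not called and Slc1a4 is higher in all knockout livers.

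The heavy subunit shared by most light subunits, Slc3a2, was not called. It read 12.15, 12.26 and 12.27 in knockout replicates 1, 2 and 3, against 12.18, 12.33 and 12.49 in wildtype replicates 1, 2 and 3, and the groups overlapped. Its change was -0.11 ± 0.09 (limma adjusted p = 0.459), and the 95% interval ran from -0.31 to 0.10. Slc3a1, the heavy subunit of the cystine carrier of kidney and gut, read 5.88, 5.91 and 5.99 in knockout livers and 5.89, 5.78 and 6.20 in wildtype livers, overlapping as well, with a change of -0.03 ± 0.11 (adjusted p = 0.861).

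Light subunits split by member, with 3 of 10 lower and 2 higher, beside 8.26% and 10.8% of all genes. Slc7a5, which brings in large neutral amino acids such as leucine, read 11.42, 11.44 and 11.48 in knockout replicates 1, 2 and 3, against 11.88, 11.93 and 12.11 in wildtype replicates 1, 2 and 3. The groups were separate, and the change of -0.53 ± 0.08 (limma adjusted p = 0.0014) was smaller than those above. Its relative Slc7a8 read 7.71, 7.99 and 7.92 in knockout livers, against 8.42, 8.37 and 8.60 in wildtype livers, a change of -0.59 ± 0.10 (adjusted p = 0.00178) with no overlap. Slc7a11, the cystine and glutamate exchanger that supplies cysteine for glutathione, went the other way. It read 6.43, 6.71 and 6.32 in knockout replicates 1, 2 and 3, against 5.60, 5.60 and 5.78 in wildtype replicates 1, 2 and 3. This dim probe set was higher in every knockout liver and rose by 0.82 ± 0.11, 1.77-fold (adjusted p = 0.000345).

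Slc7a7 and Slc7a6, which exchange cationic for neutral amino acids, were called in opposite directions near the threshold. Slc7a7 averaged 7.70 ± 0.08 in knockout livers and 8.10 ± 0.20 in wildtype livers (SD, n = 3 each), a change of -0.40 ± 0.11 (limma adjusted p = 0.0241). Slc7a6 averaged 9.24 ± 0.08 in knockout livers and 8.89 ± 0.19 in wildtype livers (SD, n = 3 each), a change of 0.35 ± 0.10 (adjusted p = 0.0364). Each call was lost when certain single livers were left out: Slc7a7 without knockout replicate 1 or 3 or wildtype replicate 2 or 3, with changes from -0.40 to -0.29, and Slc7a6 without knockout replicate 2 or 3 or wildtype replicate 1 or 2, with changes from 0.26 to 0.34. Housekeeping centring also ended the call of Slc7a7 (-0.38, adjusted p = 0.0781) and that of Slc7a6 (0.37, adjusted p = 0.0757). Slc7a6 was not called with quantile normalization (0.28, adjusted p = 0.0889) or 75th percentile centring (0.29, adjusted p = 0.0811) either. Macrophage markers went in the direction of Slc7a7: 6 of 10 were lower and 0 higher, and their summed intensity was 3625 to 4053 in knockout livers and 4807 to 5859 in wildtype livers. Erythroid markers did so as well, with 7 of 8 lower. The part of either cell type in the change of Slc7a7 was not tested. The remaining light subunits, Slc7a9, Slc7a10, Slc7a12, Slc7a13 and Slc7a15, were not called, with changes from -0.32 in Slc7a9 (adjusted p = 0.0672) to 0.13 in Slc7a12.

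Cationic carriers also split, with 2 of 5 lower and 1 higher, beside 8.26% and 10.8% of all genes. Slc7a1, the main arginine and lysine carrier of many dividing cells, read 9.36, 9.36 and 9.39 in knockout replicates 1, 2 and 3, against 9.92, 10.10 and 10.21 in wildtype replicates 1, 2 and 3. The knockout livers lay together below all wildtype livers, a change of -0.70 ± 0.09 (limma adjusted p = 0.000268). Slc7a3 read 7.60, 7.22 and 7.22 in knockout replicates 1, 2 and 3, against 6.01, 6.87 and 6.06 in wildtype replicates 1, 2 and 3. Slc7a3 was higher in every knockout liver, but wildtype replicate 2 stood closer to the knockout livers than to its own group. Its probe set was dim, averaging 6.83 over all arrays, below the median of all genes at 7.03. The rise of Slc7a3 was 1.03 ± 0.20, 2.04-fold (adjusted p = 0.00496). It was 1.31 without that liver but 0.83 with array weights, 0.88 when wildtype replicate 1 was dropped, and 0.90 when either wildtype replicate 3 or the first knockout liver was dropped; Slc7a3 was called in each of these, with adjusted p of at most 0.0314. Slc7a4 fell by 0.31 ± 0.07 (adjusted p = 0.0139), a call lost without knockout replicate 2, at the same change of -0.31 (adjusted p = 0.0554), and with quantile normalization, at -0.21 (adjusted p = 0.0775). Slc7a2 and Slc7a14 were not called.

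The glycine carriers Slc6a9 and Slc6a5 were called lower. Slc6a9, which carries glycine and is active in erythroid cells, read 11.77, 11.85 and 11.95 in knockout replicates 1, 2 and 3, against 12.55, 12.70 and 12.94 in wildtype replicates 1, 2 and 3. The groups did not overlap and the change was -0.87 ± 0.11, 1.82-fold lower (limma adjusted p = 0.000204). Slc6a5, a glycine carrier of inhibitory neurons, averaged 4.94 ± 0.11 in knockout livers and 5.25 ± 0.08 in wildtype livers (SD, n = 3 each), below the lower quartile of all genes. Its change of -0.30 ± 0.09 (adjusted p = 0.031) was no longer called without knockout replicate 2 or 3 or wildtype replicate 1 or 3, with changes from -0.31 to -0.26 and adjusted p from 0.0586 to 0.124. Quantile normalization gave -0.22 (adjusted p = 0.0827) and centring on the housekeeping genes -0.29 (adjusted p = 0.117), so that Slc6a5 was not called under them. The proline carrier Slc6a7 was not called (-0.08 ± 0.09).

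Monoamine carriers were the only role group with rises and no falls: Slc6a3 and Slc6a4 were called higher, and the noradrenaline carrier Slc6a2 was not called (-0.07 ± 0.10). Role groups were small, and their shares were not tested against the 10.8% of all genes called higher and 8.26% called lower. Slc6a3 read 8.48, 8.90 and 8.86 in knockout replicates 1, 2 and 3, against 7.81, 7.75 and 7.76 in wildtype replicates 1, 2 and 3. All knockout livers were clearly above the tight wildtype group, a rise of 0.97 ± 0.11 or 1.96-fold (limma adjusted p = 0.000117). Slc6a4, the serotonin carrier that also loads platelets, read 9.17, 9.50 and 9.61 in knockout replicates 1, 2 and 3, against 9.16, 9.03 and 8.79 in wildtype replicates 1, 2 and 3. The lowest knockout liver and the highest wildtype liver nearly touched, and the rise of 0.44 ± 0.13 (adjusted p = 0.0367) was not called without knockout replicate 2 or 3 or wildtype replicate 2 or 3, with changes from 0.33 to 0.45. Slc6a4 was not called either with the replicate number as a block (adjusted p = 0.0529), with quantile normalization (0.38, adjusted p = 0.056) or with 75th percentile centring (0.37, adjusted p = 0.058).

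All 6 measured megakaryocyte markers rose as well, and their summed intensity was 17929, 21744 and 23430 in knockout replicates 1, 2 and 3, against 14211, 14703 and 14014 in wildtype replicates 1, 2 and 3. Knockout replicate 1, with the lowest megakaryocyte sum of its group, also had the lowest Slc6a3 and the lowest Slc6a4 of its group. This was not particular to megakaryocyte markers. That liver also had the lowest erythroid, hepatoblast, macrophage, granulocyte, endothelial, mast cell and basophil, and housekeeping sums of its group. Its lymphoid and mesenchymal sums were not the lowest. The part of megakaryocytes in the change of Slc6a3 or Slc6a4 was not tested. Among 8 granulocyte markers 3 rose and 0 fell, with sums of 6570 to 8252 in knockout livers and 5201 to 5704 in wildtype livers. Of 8 endothelial markers 1 rose and 0 fell, of 8 mesenchymal markers 0 rose and 1 fell, and of 7 lymphoid markers 1 rose and 1 fell. Of 6 mast cell and basophil markers limma called 0, also at an unadjusted p under 0.05, and 4 of them, Mcpt8, Ms4a2, Fcer1a and Prss34, were below the lower quartile of all genes. So were 3 of the lymphoid markers, Cd79a, Rag1 and Cd3d, and Cd3d was the lymphoid marker that fell.

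**Figure D3:**
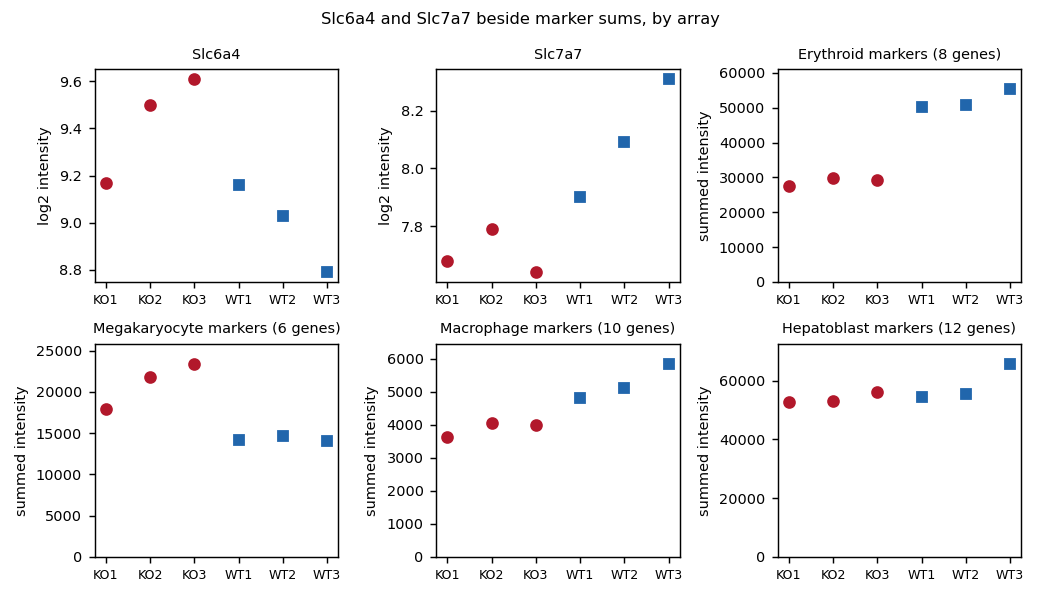
Log2 intensity of Slc6a4 and Slc7a7, and summed intensity of the erythroid, megakaryocyte, macrophage and hepatoblast markers, on each array; KO1 to KO3 are knockout and WT1 to WT3 wildtype replicates. Megakaryocyte sums are 17929 to 23430 in knockout livers and 14014 to 14703 in wildtype livers, and macrophage sums are 3625 to 4053 in knockout livers and 4807 to 5859 in wildtype livers.

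The GABA, taurine and creatine carriers did not pass the test. All 5 measured members were not called, 1 of them, Slc6a12, a betaine and GABA carrier, had an unadjusted p under 0.05, and changes ran from -0.32 in Slc6a13 to 0.07 in Slc6a8, the creatine carrier.

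None of the 11 Slc38 carriers, which take up glutamine and other neutral amino acids with sodium or act in lysosomes, was called by limma, and 2 had an unadjusted p under 0.05. Slc38a2, a carrier whose gene is induced when amino acids run short, read 11.45, 11.53 and 11.62 in knockout replicates 1, 2 and 3, against 11.42, 11.62 and 11.88 in wildtype replicates 1, 2 and 3. The groups overlapped, and its change of -0.10 ± 0.11 (adjusted p = 0.56) had a 95% interval of -0.35 to 0.15. Slc38a5, a glutamine carrier, was at -0.09 ± 0.10, and changes of the family ran from -0.31 in Slc38a3 to 0.15 in Slc38a6. Slc38a1 and Slc38a9, a lysosomal arginine sensor, were the 2 members with more than 1 probe set, and their probe sets disagreed in the call but not in sign. When every probe set was fitted, the dimmer set of Slc38a1 changed by -0.36 ± 0.09 (adjusted p = 0.0183) and the brighter was at -0.16 ± 0.09 (adjusted p = 0.238). For Slc38a9 the dimmer set changed by -0.26 ± 0.08 (adjusted p = 0.0449) and the brighter was at -0.07 ± 0.12 (adjusted p = 0.729). Limma also called 0 of the 4 proton-coupled Slc36 carriers, none of which had an unadjusted p under 0.05, with changes from -0.19 in Slc36a3 to 0.07 in Slc36a4. The opposite-strand genes Slc6a19os and Slc7a6os were not called, at -0.09 ± 0.14 and 0.15 ± 0.08.

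**Figure D4:**
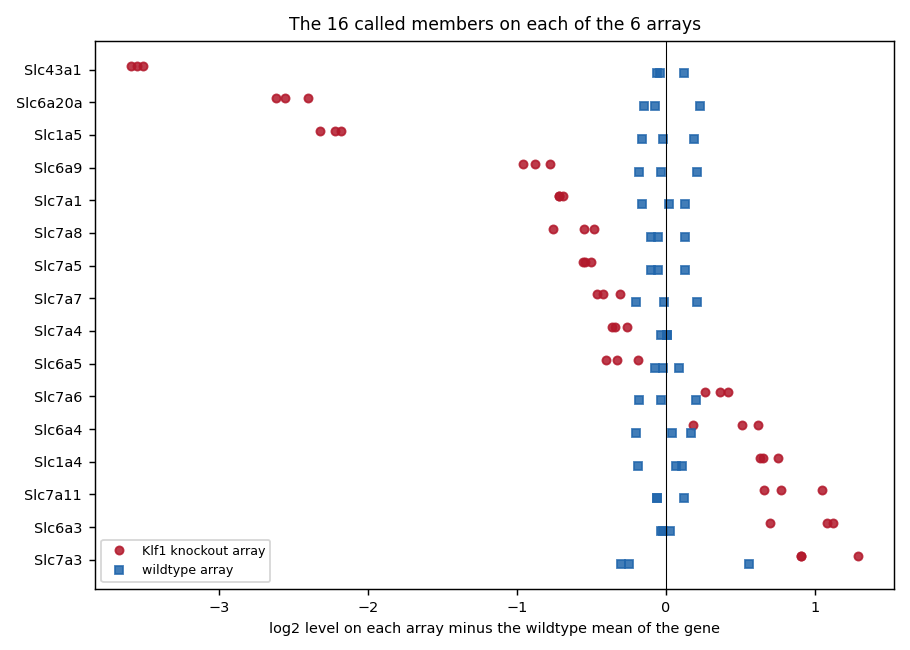
Log2 level of the 16 called members on each array after subtraction of the wildtype mean of the gene; circles are knockout and squares wildtype livers. The groups are separate in all 16, narrowly in Slc6a4, and wildtype replicates spread most in Slc7a3.

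Promoter windows, from 250 bases before to 50 after a transcript start in RefSeq on GRCm38.p6, were found for 47 of the 64 members, 68 windows in all. They were searched on both strands for CCNCNCCC, a pattern of the CACC boxes that Klf factors bind, and for TGATGNAA, a pattern of the amino acid response elements bound by Atf4 and its partners. The windows of the 2 members with the largest falls are shown. Those of Slc1a4 and Slc7a11 are shown because they were the members called higher whose windows held TGATGNAA. The windows of Slc6a3, Slc6a4 and Slc7a6, also called higher, did not hold it. Capitals mark CCNCNCCC in the first 2 and TGATGNAA in the last 2. The Slc43a1 window is chr2:84840073-84840372 on the plus strand, Slc6a20a chr9:123678783-123679082, Slc1a4 chr11:20332664-20332963 and Slc7a11 chr3:50443564-50443863, all 3 on the minus strand.
Slc43a1: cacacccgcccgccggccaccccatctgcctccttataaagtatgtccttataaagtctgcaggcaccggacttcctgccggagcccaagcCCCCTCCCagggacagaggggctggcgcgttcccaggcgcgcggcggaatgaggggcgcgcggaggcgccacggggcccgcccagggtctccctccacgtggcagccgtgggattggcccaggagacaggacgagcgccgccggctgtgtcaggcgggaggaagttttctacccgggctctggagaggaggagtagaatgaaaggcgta
Slc6a20a: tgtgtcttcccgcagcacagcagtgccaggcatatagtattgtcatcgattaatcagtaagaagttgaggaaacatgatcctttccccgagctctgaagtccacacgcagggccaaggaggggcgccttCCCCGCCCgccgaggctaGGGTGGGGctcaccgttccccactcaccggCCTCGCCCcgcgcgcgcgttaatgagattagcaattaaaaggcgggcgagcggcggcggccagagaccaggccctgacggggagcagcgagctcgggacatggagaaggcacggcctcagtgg
Slc1a4: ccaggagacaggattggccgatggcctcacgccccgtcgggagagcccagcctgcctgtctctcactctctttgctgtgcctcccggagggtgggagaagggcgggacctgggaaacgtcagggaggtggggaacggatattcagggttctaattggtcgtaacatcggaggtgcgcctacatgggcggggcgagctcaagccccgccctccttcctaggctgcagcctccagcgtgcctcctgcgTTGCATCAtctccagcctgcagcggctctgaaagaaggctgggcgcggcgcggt
Slc7a11: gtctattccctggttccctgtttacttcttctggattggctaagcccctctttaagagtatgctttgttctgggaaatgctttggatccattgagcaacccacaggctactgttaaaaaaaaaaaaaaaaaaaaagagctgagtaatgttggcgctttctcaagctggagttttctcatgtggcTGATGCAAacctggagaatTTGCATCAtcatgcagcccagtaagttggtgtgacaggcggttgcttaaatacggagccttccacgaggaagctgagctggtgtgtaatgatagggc

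CCNCNCCC was present 1 time in the Slc43a1 window and 3 times in the Slc6a20a window. It is a frequent pattern: 49.5% of 32851 windows of all genes held it, as did 46 of the 68 member windows (67.6%), 13 of 15 windows of members called lower and 5 of 6 windows of members called higher. Several windows can belong to 1 gene and overlap, as in Slc7a7, so counts of windows are not counts of separate genes. TGATGNAA was rarer, in 3.97% of all windows and 5 of 68 member windows (7.35%), with 2 of 6 windows of members called higher and 2 of 15 of members called lower. It occurred 2 times in the Slc7a11 window, on opposite strands, and 1 time in the Slc1a4 window, which also held 3 matches to CCNCNCCC with 0 bases shared. Windows were found for 7 of the 10 members called lower, leaving Slc1a5, Slc7a5 and Slc7a4 unsearched, and for 5 of the 6 called higher, leaving Slc7a3 unsearched. Of those 7 members called lower, Slc7a7 held TGATGNAA, in 2 of its 5 windows, and the others did not hold it in theirs. These matches describe letters in a window and are not evidence of binding.

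Other genes of amino acid supply were set beside the carriers. Over all genes 10.8% were called higher and 8.26% lower. At or above the median level of genes, 29.1% of all genes were called in either direction. There the called share was 30% of the other carriers and 45% of the amino acid response genes. It was 30% of the sensing and mTORC1 genes and 33.3% of the amino acid enzymes. Among 18 other amino acid carriers outside these families 4 fell and 1 rose, with a median of -0.11. Slc25a38, the mitochondrial glycine carrier of heme synthesis, fell by 1.06 ± 0.08, and Slc16a10, a carrier of aromatic amino acids, fell by 0.95 ± 0.09. Slc25a18, a mitochondrial glutamate carrier, fell by 0.54 ± 0.08, and the lysosomal cystine exporter Ctns rose by 0.42 ± 0.10.

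Of 23 measured genes of the amino acid response, which answers amino acid shortage and other stresses, 6 rose and 3 fell, with a median of -0.01. Trib3, a pseudokinase target of Atf4, rose by 0.92 ± 0.08, Vldlr by 0.51 ± 0.12 and Eif4ebp1, a translation repressor, by 0.49 ± 0.10. Ppp1r15a, which reverses the block of translation, fell by 1.34 ± 0.09. Atf4 itself fell by 0.30 ± 0.08 (limma adjusted p = 0.0174), and its target Asns, the asparagine synthetase gene, was not called at 0.20 ± 0.08 (adjusted p = 0.107); both were named after their values were seen.

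In the list of amino acid sensing and mTORC1, the kinase complex that couples amino acids to growth, 8 of 34 genes rose and 4 fell. Rragd, a GTPase that brings mTORC1 to lysosomes, fell by 1.77 ± 0.11, Fnip2, a partner of folliculin, by 1.21 ± 0.09 and Sesn1, of the leucine-sensing sestrin family, by 0.92 ± 0.08, while Nprl2, a subunit of the inhibitory GATOR complex, rose by 0.82 ± 0.09. Among amino acid enzymes 5 of 32 were called higher and 5 lower, and changes were positive in 21 and negative in 11. The glutathione synthetase gene Gss fell by 0.87 ± 0.08, the polyamine enzyme gene Odc1 by 0.64 ± 0.08 and the arginase gene Arg1 by 0.57 ± 0.10, and Bcat2, the mitochondrial branched-chain aminotransferase gene, rose by 0.55 ± 0.07. Limma called 0 of the 18 measured cytosolic tRNA synthetases, and 0 had an unadjusted p under 0.05, with Mars1 at -0.16 ± 0.07 (adjusted p = 0.154) and Qars at 0.16 ± 0.08 (adjusted p = 0.176) nearest to the threshold.

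**Figure D5:**
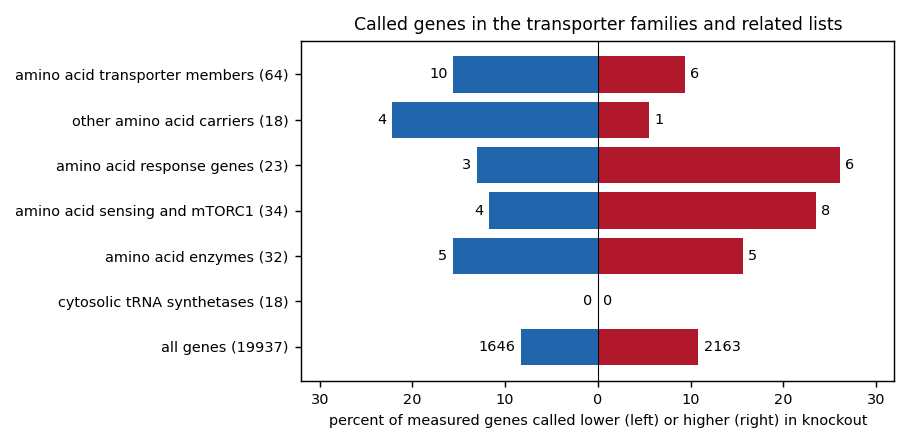
Percent of measured genes called lower (bars to the left) or higher (bars to the right) in the knockout for the 64 members, 5 related lists and all genes, with the count at each bar. The members have 10 lower and 6 higher calls, the amino acid response list 3 and 6, and the tRNA synthetases 0 and 0.

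Genes next to the called members in chromosomal order were also read. The 16 called members had 30 measured neighbours outside the families, of which 6 were called, or 20%, beside 19.1% of all genes, and 2 of those 6 had the direction of the member. Timm10 and Rtn4rl2, on either side of Slc43a1, were not called at -0.07 ± 0.12 and -0.28 ± 0.09, and Ap2s1 and Strn4, beside Slc1a5, were not called at -0.07 ± 0.11 and 0.05 ± 0.08. Lpcat1, a phospholipid enzyme gene beside Slc6a3, fell by 1.70 ± 0.08 while Slc6a3 rose, and Sertad2 on one side of Slc1a4 fell by 1.36 ± 0.08 while Slc1a4 rose. Cep68, on the other side of Slc1a4, rose with it by 0.44 ± 0.09 (limma adjusted p = 0.00699), and Mrpl52 beside Slc7a7 fell with it by 0.46 ± 0.09 (adjusted p = 0.00592). The remaining called neighbours, Noct beside Slc7a11 and Tex11 beside Slc7a3, fell by 0.53 ± 0.07 and 0.33 ± 0.10 while those members rose. Of the called members, Slc6a20a and Slc7a6 had another member as a neighbour, Slc6a20b and Slc7a6os, and neither neighbour was called.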

How the data were processed

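Livers of 6 embryos were each measured on 1 Affymetrix MoGene array in 1 colour, and array titles gave the genotype. The authors deposited an intensity for each probe set, on a linear scale from 5.6 to 27245; RMA and Affymetrix Power Tools 1.8.6 are what the submitters' processing notes name. The genome build is not given in the sources used here, and since RMA equalises arrays, changes in total RNA are invisible. Log2 was taken. The platform table named 21640 single-gene probe sets, and the brightest of each gene stood for it. Knockout and wildtype were compared 2-sided by limma (version 3.58.1, R version 4.3.3; lmFit, eBayes) with genotype alone in the model, after a check on simulated data. Noise in that check was independent between genes, so effects shared within an array were not covered by it. With so few arrays precision is limited by their number, and an exact permutation test of 3 against 3 cannot go below p = 0.10.

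Members and lists were chosen with earlier results of these data known. Array values are given for called members changed at least 1.5-fold, for Slc3a2, Slc3a1, Slc7a5, Slc7a11, Slc1a5, Slc38a2 and Slc6a9, and for Slc6a4, added after its values were seen; related lists name up to 4 called genes with the largest change, or the 2 with the smallest p. Relatives, neighbours, search patterns and windows shown were picked after values were seen. RefSeq tables on GRCm38.p6 gave neighbour order and promoters. Alternatives covered scaling, dim genes, probe sets, variance models, a replicate block, a pseudocount of 16, an adjusted p under 0.01 and each array left out.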

Additional observations from a re-analysis of the deposited data

How the results depend on the processing

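Of the 16 called members, 11 kept their direction and their call under every one of the 18 alternatives in which they were tested: Slc43a1, Slc6a20a, Slc1a5, Slc6a9, Slc7a1, Slc7a8, Slc7a5, Slc1a4, Slc7a11, Slc6a3 and Slc7a3. Slc43a1 ran from -3.62 to -3.50 and Slc3a2 from -0.18 to -0.03, not called in any. Calls of Slc6a4, Slc6a5, Slc7a4, Slc7a6 and Slc7a7 were lost under some; causes were not tested. With 1 array left out, 4 to 6 members were higher and 8 to 12 lower, beside 1371 to 2106 and 1026 to 1643 of all genes. Quantile normalization gave 4 higher and 8 lower (all genes 1991 and 1541) and housekeeping centring 5 and 8 (1821 and 986). Array weights gave 7 and 13 (2554 and 2244), and an adjusted p under 0.01 gave 4 and 7 (1160 and 835). Slc38a2 ran from -0.21 to 0.02 with 1 array left out, turning positive without wildtype replicate 3. Slc3a1 ran from -0.12 to 0.09, positive likewise without wildtype replicate 3, and turned to 0.08 with quantile normalization and 0.04 with array weights; none of these was called. Over all genes, 3809 calls became 1995 at an adjusted p under 0.01, 2409 without knockout replicate 2 and 2414 without knockout replicate 3. With 75th percentile centring, 1573 of the calls over all genes were higher and 2462 lower, where the main setting had 2163 and 1646. With the replicate number of the titles as a block, 5 members were higher and 12 lower, beside 2002 and 1496 of all genes. The correlations of same-numbered arrays' deviations were -0.16, -0.22 and 0.18, so no pairing was assumed. The file gives no measure of signal over background, so for the 11 members below the lower quartile it is unknown whether their transcripts were detected.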
